A study of Mus musculus with 11 samples.

Results

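Interferon-stimulated genes are the genes a cell switches on when an interferon binds its receptors, and many of their products block the growth of viruses. The 37 genes described here were picked by name as well-known members of this group, and a member had to be a row of both deposited tables. All 37 were found, among 19259 genes in the table of the ANXA2 knockout and 19801 in that of the ANXA5 knockout (18712 genes were in both). limma and edgeR called none of the 37 members in either knockout or between the knockouts. DESeq2 called 2 members in the ANXA5 knockout, Oas3 and Oas2, among 278 of 16224 genes tested. Both were also past 0.05 in the authors' deposited table (1.76% of its genes with such a value were). Between the knockouts DESeq2 called 3 members, Irgm1, Cxcl10 and Ifit1, among 397 of 16791 genes tested. The members that stood farthest from the wild type were the 2′-5′ oligoadenylate synthetases Oas3 and Oas2, which were higher in the ANXA5 knockout without overlap between libraries. The gamma interferon GTPase Irgm1 and the chemokine Cxcl10 lay above the wild type mean in the ANXA2 knockout and below it in the ANXA5 knockout, and they had the smallest p-values between the knockouts.

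Mesenchymal stromal cells, which attach to plastic and support blood formation, were taken from the bone marrow of mice and studied as primary cells. Total RNA was sequenced from 3 libraries of ANXA2 KO mice, 4 of ANXA5 KO mice and 4 of wild type mice, all on the C57/BL6 background and all untreated. ANXA2 and ANXA5 are annexins, proteins that bind membrane lipids when calcium is present. The labels state neither the part of the gene removed, nor the age or sex of the mice, nor whether the libraries of a group came from separate animals or cultures, so p-values here reflect only how much these libraries vary, and that variation may be technical. The ANXA2 knockout columns are numbered 1, 3 and 4 and their values are given in that order; those of the other groups run from 1 to 4.

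Each library held 23304225 to 35654634 reads over the genes of its table, of which the 37 members took 0.0918 to 0.123%. The targeted genes were low in their own knockouts. Anxa2 had 7159 to 10427 normalised reads (reads divided by a size factor per library) in the ANXA2 knockout, against 27947 to 31163 in the wild type, and its mean was 28.6% of the wild type mean. Anxa5 had 2295 to 2426 normalised reads in the ANXA5 knockout, against 23423 to 27595 in the wild type, or 9.24% by the means. Stromal markers such as Pdgfra (19168 to 26876 normalised reads over all libraries) and Lepr (3160 to 5697) were present, and none of the 12 stromal markers was at 0. Markers of blood cells were also present in every library. The neutrophil granule gene Ngp stood at 95745 to 194083 normalised reads. Lyz2, listed here as a macrophage and monocyte marker though not limited to these cells, stood at 60108 to 128940. Xist, an RNA made from the inactive X chromosome of female cells, ranged from 0.959 to 1997 normalised reads among the wild type libraries of the ANXA2 table, and the labels give no sex.

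Type I interferons act through the receptor pair Ifnar1 and Ifnar2 on the kinases Jak1 and Tyk2. These kinases activate a complex that contains Stat2 and Irf9 and binds a DNA element called ISRE (interferon-stimulated response element) in the promoters of its targets. Interferon gamma acts through Ifngr1 and Ifngr2 on genes with another element, called GAS, and it drives the GTPases and Cxcl10 more than the type I interferons do. Even without infection, most cells keep a low level of these genes through small amounts of interferon, and this tonic state is known to differ between cell types.

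The promoters were searched for both elements. A window of 250 bases before to 50 bases after the annotated start was taken from RefSeq on build GRCm38.p6 and was found for 29 of the 37 members. The ISRE core GAAANNGAAA, searched on both strands and allowed to overlap itself, was in 18 of the 29 (62.1%), against 3.99% of all 27025 genes with such a window. The GAS core TTCNNNGAA was in 8 of the 29 (27.6%), against 9.55% of all genes. These matches are a description of the letters, and no binding was measured. Promoters of some of the members that hold an ISRE core follow, with each core in capitals, so they do not stand for all 29. Ifit2 and Irf7, which come up below, had a window but no ISRE core in it. Oas3 (chr5:120777610-120777909, minus strand) has 1 match, Oas1a (chr5:120907476-120907775, minus strand) has 2 that overlap, and so does Irgm1 (chr11:48871371-48871670, minus strand). Cxcl10 (chr5:92348840-92349139, minus strand) has 1 match far from the start. Ifit3 (chr19:34583279-34583578, plus strand) and Ifit3b (chr19:34607707-34608006, plus strand) are neighbouring copies, each with 2 matches that read on the other strand, TTTCNNTTTC.
Oas3: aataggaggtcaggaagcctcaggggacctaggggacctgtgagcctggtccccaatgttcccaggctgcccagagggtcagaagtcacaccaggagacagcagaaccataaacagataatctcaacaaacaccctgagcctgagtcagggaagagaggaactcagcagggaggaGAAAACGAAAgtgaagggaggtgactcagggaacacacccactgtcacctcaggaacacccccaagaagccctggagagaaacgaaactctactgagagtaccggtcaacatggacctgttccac
Oas1a: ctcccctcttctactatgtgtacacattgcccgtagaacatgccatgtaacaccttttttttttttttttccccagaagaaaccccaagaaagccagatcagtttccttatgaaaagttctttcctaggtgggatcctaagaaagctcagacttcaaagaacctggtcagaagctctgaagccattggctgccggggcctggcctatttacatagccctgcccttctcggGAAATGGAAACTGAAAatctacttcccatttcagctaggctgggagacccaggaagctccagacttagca
Irgm1: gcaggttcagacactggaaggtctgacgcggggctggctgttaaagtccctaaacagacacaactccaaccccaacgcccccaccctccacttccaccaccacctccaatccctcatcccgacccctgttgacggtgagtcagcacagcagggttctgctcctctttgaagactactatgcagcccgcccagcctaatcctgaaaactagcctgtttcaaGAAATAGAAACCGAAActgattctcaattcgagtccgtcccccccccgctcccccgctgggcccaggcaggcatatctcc
Cxcl10: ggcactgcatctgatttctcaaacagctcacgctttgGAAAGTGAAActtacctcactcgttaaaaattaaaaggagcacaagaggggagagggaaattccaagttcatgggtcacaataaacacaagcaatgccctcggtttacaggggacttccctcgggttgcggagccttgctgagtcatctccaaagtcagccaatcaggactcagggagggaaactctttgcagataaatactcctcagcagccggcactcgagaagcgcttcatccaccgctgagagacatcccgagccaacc
Ifit3: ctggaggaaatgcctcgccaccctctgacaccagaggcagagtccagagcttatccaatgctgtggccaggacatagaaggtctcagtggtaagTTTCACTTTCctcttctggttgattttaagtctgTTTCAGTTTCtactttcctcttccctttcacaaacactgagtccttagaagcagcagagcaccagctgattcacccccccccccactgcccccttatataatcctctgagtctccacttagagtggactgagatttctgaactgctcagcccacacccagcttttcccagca
Ifit3b: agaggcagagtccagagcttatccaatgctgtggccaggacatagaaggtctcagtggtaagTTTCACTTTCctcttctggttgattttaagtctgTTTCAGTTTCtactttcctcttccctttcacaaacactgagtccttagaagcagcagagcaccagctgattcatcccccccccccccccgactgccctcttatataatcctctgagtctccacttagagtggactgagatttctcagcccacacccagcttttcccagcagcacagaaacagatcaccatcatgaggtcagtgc

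Both matches of Irgm1 start within 30 bases before the annotated start, and those of Oas1a within 20 bases. The match of Oas3 starts 75 bases before it and that of Cxcl10 213 bases before it. Aligned without gaps at a shift of 32 bases, the Ifit3 and Ifit3b windows were the same at 75% of 268 bases, and both cores of Ifit3 recur in Ifit3b. A run of C bases differs in length between the windows and puts the bases after it out of step. The share of equal bases thus understates their likeness. Over all 18 promoters there were 27 matches, and 8 members had more than 1. Isg15, the ubiquitin-like modifier, had 3, which began 78, 72 and 66 bases before its start.

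**Figure D1:**
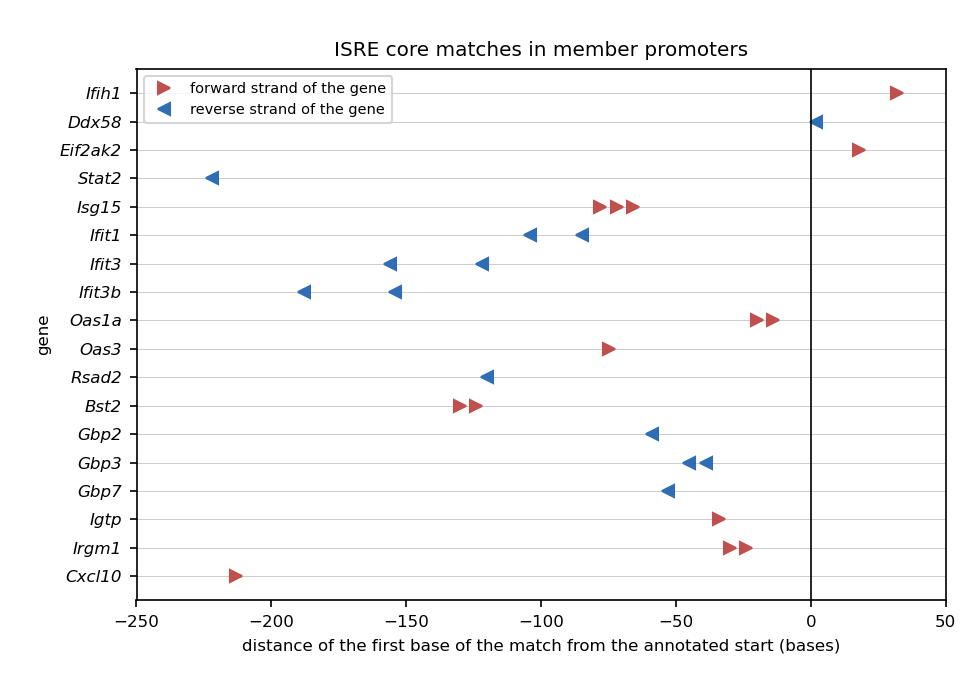
Position of each ISRE core match in the 18 member promoters that hold one. The horizontal axis is the distance of the first base of the match from the annotated start in bases, rows are genes, and the triangle's direction and colour give the strand; most of the 27 matches lie upstream, with Stat2 the farthest at 222 bases.

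The members spanned a wide range of levels in the wild type libraries, which also held RNA of blood cells. Divided by exonic length, the wild type level was highest for Ifi27, a small hydrophobic protein, at 2262 ± 312 normalised reads per kilobase (SD, n = 4). Bst2, or tetherin, which holds budding virus at the cell surface, followed at 1039 ± 170.1, and Ifi35 at 506 ± 39.1. Isg15 stood at 412 ± 53.0, close to the 3′ to 5′ exonuclease Isg20 at 394 ± 40.4, and these 2 did not differ beyond their spread. At the low end were Mx2 at 26.0 ± 4.09, Mx1 at 17.9 ± 6.40 and Ifi44 at 7.06 ± 1.51 normalised reads per kilobase. The Mx genes encode GTPases that trap viral particles and are defective in C57BL/6 and most other laboratory strains. Of the 37 members, 30 lay above the median of all genes by level per kilobase, and the median member stood at percentile 71.3. Lengths came from GENCODE vM21, which covered 99.55% of the genes.

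The first question was whether loss of either annexin changed the interferon-stimulated state of the stromal cells. Values below are normalised reads of the table named, and fold changes are differences of log2 (normalised reads + 1) from limma, knockout over wild type. In the ANXA2 knockout, 0 of 37 members passed an adjusted p of 0.05 (0.112% of all genes tested did), and edgeR and DESeq2 also called 0. At an unadjusted limma p under 0.05, 3 members were higher (4.65% of all genes) and 1 was lower (4.04%). By edgeR 4 members were under that p, and by DESeq2 5. Here and below, the share of all genes under that p was computed for limma only. In the ANXA5 knockout, limma again called 0 of 37 (0.0308% of all genes), with 3 members higher (6.48%) and 3 lower (5.45%) at an unadjusted p under 0.05. edgeR called 0 there, with 6 members at an unadjusted p under 0.05. DESeq2 called 2, Oas3 and Oas2, among 278 of 16224 genes tested, with 6 members at that p as well.

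**Figure D2:**
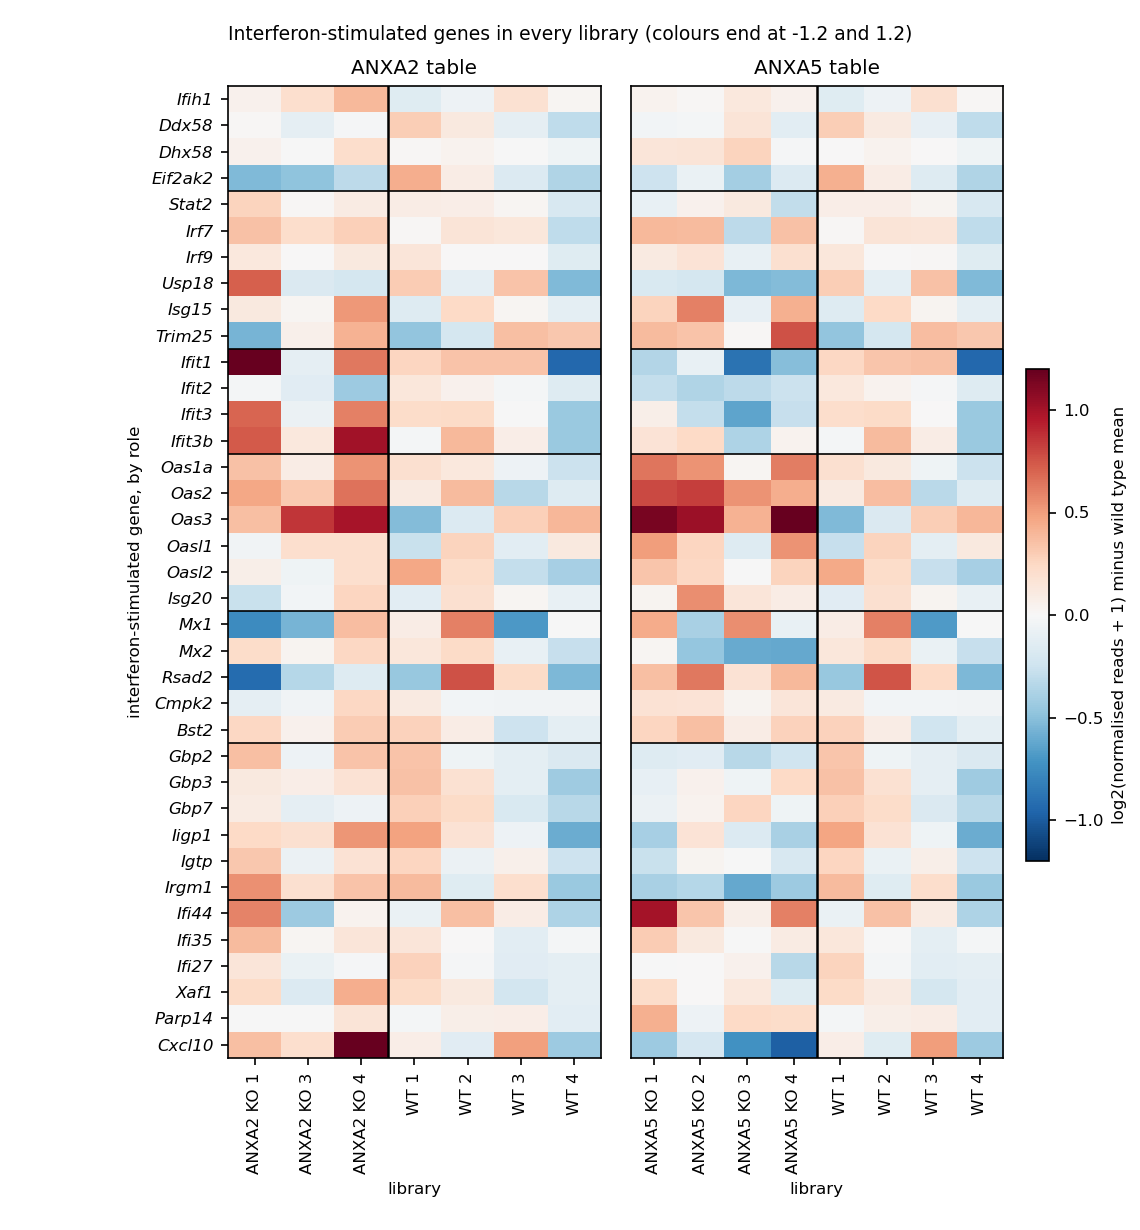
log2 (normalised reads + 1) of every member in every library, minus the mean of the wild type libraries, with members in rows by role and libraries in columns. Oas3 and Oas2 are red in the ANXA5 knockout columns, Eif2ak2 is blue in the ANXA2 knockout columns, and wild type library 4 is blue for most members.

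The log2 fold change in the ANXA2 knockout was above 0 for 29 of 37 members, against 54.1% of all genes, and the median log2 fold change was 0.13, against 0.02 over all genes. For the ANXA5 knockout it was above 0 for 23 of 37 members, against 52% of all genes, with a median of 0.06 against 0.01. Groups without overlap were rare. For the ANXA2 knockout they were 1 member higher (Irf7; 4.56% of all genes) and 0 lower (4.63%). For the ANXA5 knockout they were 2 higher (Oas3 and Oas2; 3.01% of all genes) and 1 lower (Ifit2; 3.36%). By the adjusted p of the authors' deposited table, 0 members passed 0.05 in the ANXA2 knockout (0.593% of its genes with such a value did), and 2 passed in the ANXA5 knockout (1.76%). Both comparisons used the same wild type libraries, so they are not independent of each other.

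**Figure D3:**
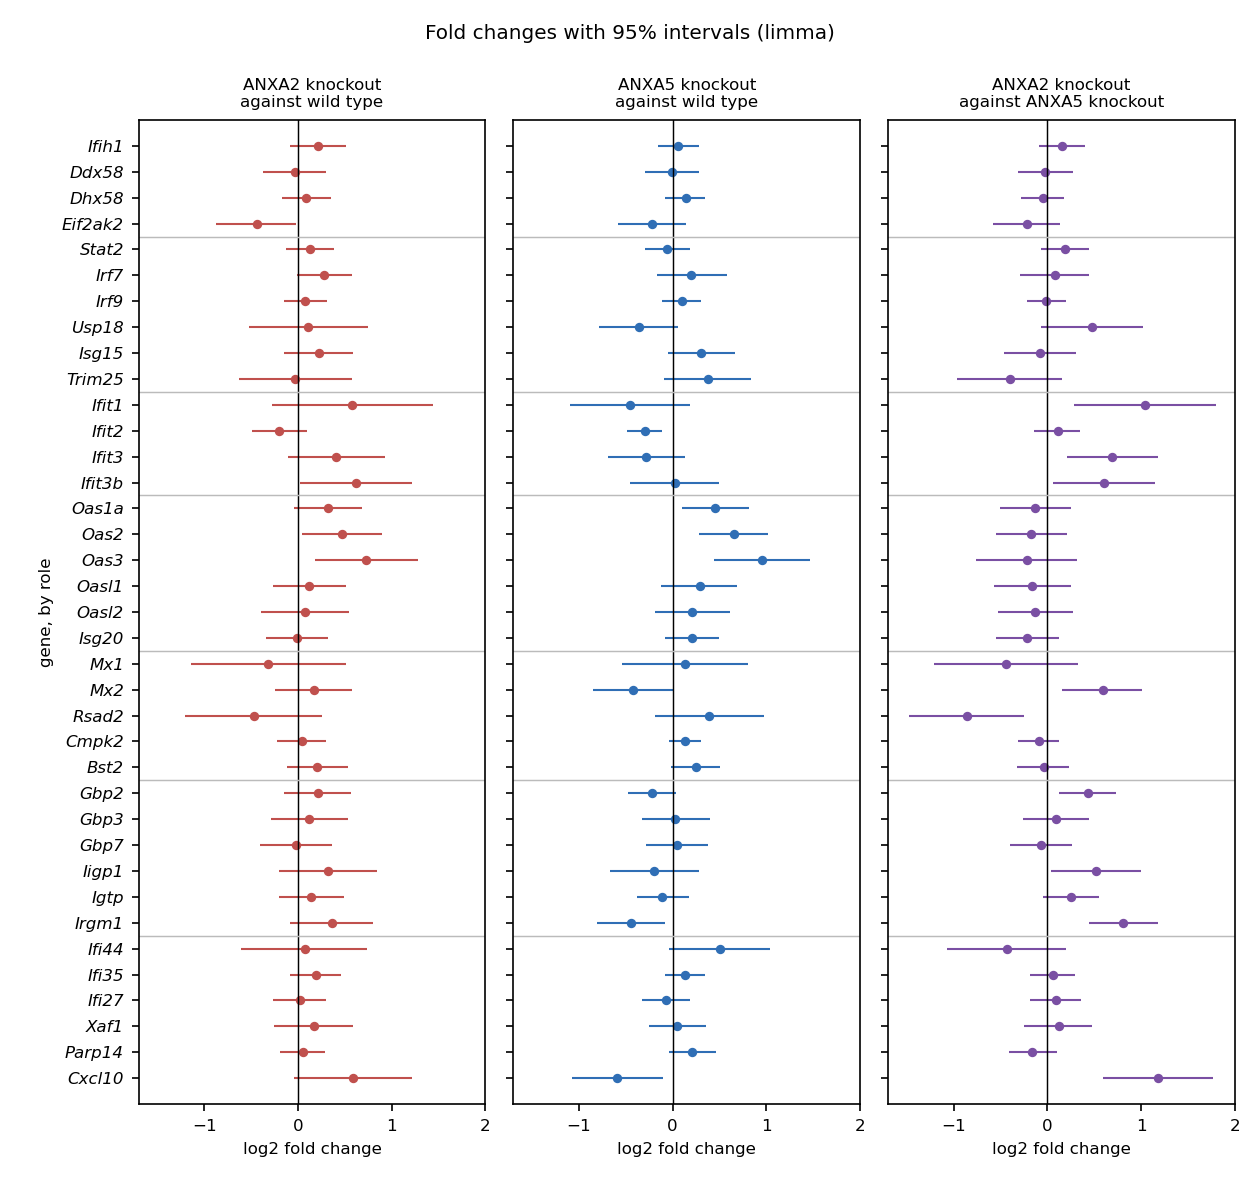
log2 fold change of each member with its 95% interval from limma, in 3 panels for the ANXA2 knockout against wild type, the ANXA5 knockout against wild type and the ANXA2 knockout against the ANXA5 knockout. Rows are members by role; most intervals cross 0, and those of Oas3 and Oas2 lie to the right of it in both comparisons with the wild type.

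The oligoadenylate synthetases make 2′-5′ linked oligoadenylates when they meet long RNA duplexes, and these switch on RNase L, which cuts RNA. Oas3, the largest of them, stood at 1275, 1175, 774 and 1361 normalised reads in the ANXA5 knockout libraries, against 401, 514, 709 and 764 in the wild type libraries. Every ANXA5 knockout library lay above every wild type library, with means of 1146 ± 259.6 normalised reads in the ANXA5 knockout libraries (SD, n = 4), against 597 ± 169 in the wild type libraries (SD, n = 4). Its log2 fold change was 0.95 (95% interval 0.44 to 1.47), at a limma adjusted p of 0.23 and an adjusted p of 0.0104 in the authors' deposited table. Oas2 stood at 403, 415, 338 and 315 normalised reads in the ANXA5 knockout libraries, against 250.3, 301, 185 and 208 in the wild type libraries. These groups did not overlap either, and the log2 fold change was 0.65 (95% interval 0.28 to 1.02, limma adjusted p = 0.23, 0.0334 in the authors' deposited table). Oas1a, whose close relatives lie beside it on chromosome 5, stood at 568, 527, 369.8 and 556 normalised reads in the ANXA5 knockout libraries, against 414, 395, 349.8 and 304 in the wild type libraries. Only library 3 of the ANXA5 knockout overlapped the wild type for Oas1a, and the log2 fold change was 0.45 (limma adjusted p = 0.336). The other genes of this group were also above 0 in the ANXA5 knockout, with Oasl1 at 0.29, Oasl2 at 0.21 and Isg20 at 0.21. All 6 genes of the group were thus above 0, with a median of 0.37, and 3 of them were higher at an unadjusted p under 0.05 (52% and 6.48% of all genes). With the level of macrophage and monocyte markers as a covariate, Oas3 was at 0.27 and Oas2 at 1.01 in the ANXA5 knockout (limma adjusted p = 0.999 for both), and Oasl1 was at -0.05. All 16 of these markers were above 0 in the ANXA5 knockout. Here and below, this fit therefore cannot well separate the covariate from that knockout.

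In the ANXA2 knockout 5 of these 6 genes were above 0, with a median of 0.22. Oas3 stood at 675, 953 and 1044 normalised reads in the ANXA2 knockout libraries, against 367, 469, 642 and 697 in the wild type libraries. The lowest knockout library lay below the highest wild type library, and the log2 fold change was 0.73 (95% interval 0.18 to 1.28, limma adjusted p = 0.523). Oas2 stood at 292, 263 and 333 normalised reads in the ANXA2 knockout libraries, against 229, 275, 168 and 190.0 in the wild type libraries. The highest wild type library reached into the range of the knockout, and the log2 fold change was 0.47 (limma adjusted p = 0.565). For Oas1a the values were 421, 351 and 479.7 normalised reads in the ANXA2 knockout libraries, against 378, 361, 317 and 277 in the wild type libraries, a log2 fold change of 0.32 (limma adjusted p = 0.585). Isg20, the most abundant of the group per kilobase, stood at 607, 714 and 872 normalised reads in the ANXA2 knockout libraries, against 667, 834, 744 and 685 in the wild type libraries, and its groups overlapped throughout (log2 fold change -0.01). Oasl1, a relative without synthetase activity, and Oasl2 had log2 fold changes of 0.12 and 0.08.

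The order of the libraries by Oas3 ran largely against that by Xist. Within the wild type, libraries 1 and 2 had 1829 and 1997 normalised reads of Xist and the lower Oas3 levels, while libraries 3 and 4 had 1.16 and 0.959 and the higher ones. Xist stood at 652, 226 and 203 in the ANXA2 knockout libraries, and at 783, 2.07, 1676 and 528 in the ANXA5 knockout libraries. There library 3 had the most Xist and the least Oas3, but library 2, with the least Xist, did not have the most Oas3. With log2 Xist as a covariate, the log2 fold change of Oas3 was 0.91 in the ANXA2 knockout (limma adjusted p = 0.0407) and 1.05 in the ANXA5 knockout (limma adjusted p = 0.119). In the ANXA2 knockout that fit called 284 genes over all genes tested, against 18 without Xist. Trim25, a ubiquitin ligase that acts on the RNA sensor Ddx58, had a like order in the wild type, with 1229, 1476, 2182 and 2131 normalised reads in libraries 1 to 4. Its knockout values were 1156, 1782 and 2271 in the ANXA2 and 2429, 2377, 1885 and 3186 in the ANXA5 knockout, and both overlapped the wild type.

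**Figure D4:**
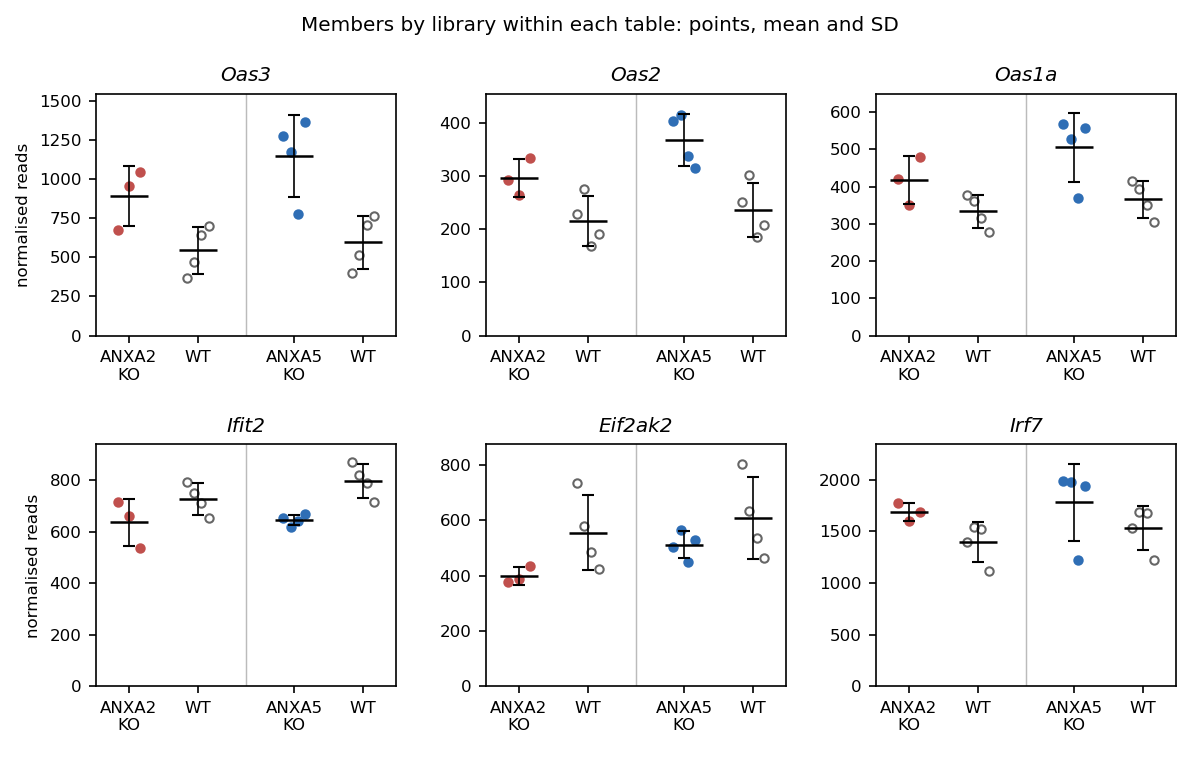
Normalised reads of 6 members in each library, with the ANXA2 knockout and its wild type on the left of each panel and the ANXA5 knockout and its wild type on the right. Points are libraries, and the long bar with whiskers is the mean and SD of 3 or 4 libraries; the ANXA5 knockout points of Oas3 and Oas2 lie above all wild type points, and those of Ifit2 below them.

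The IFIT proteins bind foreign RNA ends and translation factors. Ifit2 was the member lower in the ANXA5 knockout without overlap, at 655, 621, 642 and 668 normalised reads in the ANXA5 knockout libraries, against 870.2, 821, 788 and 715 in the wild type libraries. The means were 647 ± 20.1 normalised reads in the ANXA5 knockout libraries (SD, n = 4), against 799 ± 65.0 in the wild type libraries (SD, n = 4), so the knockout libraries lay close together. The log2 fold change was -0.30 (95% interval -0.49 to -0.11, limma adjusted p = 0.279). Ifit3, the most abundant of the family per kilobase, stood at 441, 342, 269.8 and 346 normalised reads in the ANXA5 knockout libraries, against 486, 489, 419 and 307 in the wild type libraries, and the groups overlapped (log2 fold change -0.28). Ifit1, which recognises RNA caps, stood at 453, 546, 314 and 406 normalised reads in the ANXA5 knockout libraries, against 691, 732, 739.5 and 302 in the wild type libraries. Wild type library 4 lay below every ANXA5 knockout library, the other 3 above them all, and the log2 fold change was -0.46 (95% interval -1.10 to 0.18). Ifit3b had a log2 fold change of 0.02. The family thus had 3 of 4 members below 0, with a median of -0.29, and 1 of them was lower at an unadjusted p under 0.05 (5.45% of all genes). With the macrophage marker level as a covariate the direction turned for 2 of these, with Ifit1 at 0.62 and Ifit3 at 0.26, beside Ifit3b at 0.47 and Ifit2 at -0.15.

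In the ANXA2 knockout 3 of the 4 IFIT genes were above 0, with a median of 0.49. Ifit3b stood at 151, 98.6 and 183 normalised reads in the ANXA2 knockout libraries, against 89.0, 119, 95.5 and 66.2 in the wild type libraries. Knockout library 3 lay within the wild type range, and the log2 fold change was 0.62 (95% interval 0.02 to 1.22, limma adjusted p = 0.571). Ifit1 stood at 1224, 489.6 and 819 normalised reads in the ANXA2 knockout libraries, against 631, 669, 669.6 and 275 in the wild type libraries. Knockout library 1 held the highest value and library 3 was below 3 of the wild type libraries, and the log2 fold change of 0.58 (95% interval -0.28 to 1.44) was 0.26 without knockout library 1. Ifit3 stood at 618, 363 and 579 normalised reads in the ANXA2 knockout libraries, against 444, 447, 379.6 and 280.1 in the wild type libraries (log2 fold change 0.41), with the same order of the knockout libraries as Ifit1. Ifit2 was below 0, at 715, 662 and 537 normalised reads in the ANXA2 knockout libraries, against 796, 750.2, 714 and 652 in the wild type libraries (log2 fold change -0.20). How the authors' counting treats reads that could come from both Ifit3 and Ifit3b is not given in the sources used here, so the split between them is uncertain, as it is between Oas1a, the Gbp genes, the Mx genes and their close copies.

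The RNA sensors include the helicases Ifih1 and Ddx58, which signal to Mavs, their regulator Dhx58, and Eif2ak2 (PKR), the kinase that stops translation when it binds RNA duplexes. Eif2ak2 stood at 376, 387 and 436 normalised reads in the ANXA2 knockout libraries, against 734, 579, 484 and 423 in the wild type libraries. Only the lowest wild type library reached the level of the ANXA2 knockout, and the log2 fold change was -0.44 (95% interval -0.87 to -0.02, limma adjusted p = 0.571). For ANXA5, Eif2ak2 had 502, 565, 450.0 and 531 normalised reads in the ANXA5 knockout libraries, against 803, 633, 535 and 464 in the wild type libraries, with overlapping groups (log2 fold change -0.22). Ddx58, the most abundant sensor per kilobase, stood at 953, 875 and 934 normalised reads in the ANXA2 knockout libraries, against 1155, 1019.6, 875 and 761 in the wild type libraries, and its log2 fold change was -0.03. For Ddx58 in the ANXA5 table the values were 1009.8, 1013, 1148 and 944 normalised reads in the ANXA5 knockout libraries, against 1263, 1116, 966 and 834 in the wild type libraries (log2 fold change -0.01). Ifih1 and Dhx58 had log2 fold changes of 0.21 and 0.09 in the ANXA2 knockout and of 0.06 and 0.14 in the ANXA5 knockout. In each knockout 2 sensors were above 0 and 2 below.

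Among the transcription factors and feedback genes, Irf7, which amplifies interferon production, was the member without overlap in the ANXA2 knockout. Its levels were 1771, 1605 and 1686 normalised reads in the ANXA2 knockout libraries, against 1399.6, 1541, 1521 and 1119 in the wild type libraries. All 3 knockout libraries lay above all 4 wild type libraries, by a small margin, and the log2 fold change was 0.28 (95% interval -0.01 to 0.58, limma adjusted p = 0.573). In the ANXA5 table Irf7 stood at 1989, 1981, 1225 and 1939 normalised reads in the ANXA5 knockout libraries, against 1531, 1687, 1679.7 and 1227 in the wild type libraries. There 3 knockout libraries lay above all wild type libraries and library 3 lay below all of them (log2 fold change 0.20). Stat2 and Irf9, partners in the factor that binds the ISRE, lay near the wild type: their log2 fold changes were 0.13 and 0.08 in the ANXA2 knockout and -0.06 and 0.10 in the ANXA5 knockout. Isg15, the most abundant of the group per kilobase, stood at 336, 315 and 444 normalised reads in the ANXA2 knockout libraries, against 279, 366, 316 and 285 in the wild type libraries, and at 409, 519, 317 and 457 normalised reads in the ANXA5 knockout libraries, against 305, 401, 349 and 312 in the wild type libraries. Its log2 fold changes were 0.22 and 0.30, and both pairs of groups overlapped. Usp18, which removes Isg15 from proteins and dampens the receptor, had log2 fold changes of 0.11 and -0.36.

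The GTPases of the Gbp and Irg families attack the vacuoles of microbes inside cells. Irgm1, the regulator of the family, stood at 1368, 1413, 1169 and 1321 normalised reads in the ANXA5 knockout libraries, against 2326, 1616, 2069 and 1315 in the wild type libraries. The ANXA5 knockout libraries were close together and overlapped only wild type library 4, with means of 1318 ± 106 normalised reads in the ANXA5 knockout libraries (SD, n = 4), against 1831 ± 452 in the wild type libraries (SD, n = 4). The log2 fold change was -0.44 (95% interval -0.81 to -0.08, limma adjusted p = 0.352), and 0.12 with the macrophage marker level as a covariate. In the ANXA2 table Irgm1 stood at 2392, 1863 and 2068 normalised reads in the ANXA2 knockout libraries, against 2126, 1476, 1874 and 1199 in the wild type libraries, and the groups overlapped (log2 fold change 0.36, limma adjusted p = 0.603). Gbp2, the most abundant of the group per kilobase, stood at 1194, 891 and 1183 normalised reads in the ANXA2 knockout libraries, against 1179, 901, 857 and 829 in the wild type libraries (log2 fold change 0.21). In the ANXA5 table Gbp2 stood at 917, 930.3, 811 and 868 normalised reads in the ANXA5 knockout libraries, against 1289.7, 986, 947 and 909 in the wild type libraries, where only knockout libraries 1 and 2 overlapped the wild type (log2 fold change -0.22). Of the 6 GTPases, 5 were above 0 in the ANXA2 knockout (median 0.18) and 2 in the ANXA5 knockout (median -0.15). With the macrophage marker level as a covariate all 6 were above 0 in the ANXA5 knockout, from 0.08 for Gbp2 to 0.66 for Iigp1, and with Xist as a covariate none was, with Gbp3 at -0.02 and Gbp7 at -0.01. Gbp3, Gbp7, Igtp and Iigp1 were at 0.12, -0.02, 0.14 and 0.32 in the ANXA2 knockout, and at 0.03, 0.05, -0.11 and -0.20 in the ANXA5 knockout.

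Cxcl10, a chemokine that draws T cells, stood at 525, 617, 428 and 359 normalised reads in the ANXA5 knockout libraries, against 749, 643, 1008 and 523 in the wild type libraries. The ANXA5 knockout reached the wild type range in 2 libraries, and the log2 fold change was -0.59 (95% interval -1.07 to -0.10, limma adjusted p = 0.353). It was 0.19 with the macrophage marker level as a covariate and -0.55 with Xist as a covariate. With ANXA2 deleted, Cxcl10 had 833, 746 and 1492 normalised reads in the ANXA2 knockout libraries, against 684, 588, 913 and 477 in the wild type libraries. Library 4 of the knockout was far above the rest, and the log2 fold change of 0.59 (95% interval -0.04 to 1.22, limma adjusted p = 0.578) was 0.29 without it. Ifi27 stood at 3649, 3127 and 3266 normalised reads in the ANXA2 knockout libraries, against 3984, 3257, 3002 and 3033 in the wild type libraries (log2 fold change 0.02), and at 3612, 3636, 3748 and 2881 normalised reads in the ANXA5 knockout libraries, against 4357, 3565, 3316 and 3325 in the wild type libraries (log2 fold change -0.07). Of the remaining genes of this group, Ifi44 had the largest fold change in the ANXA5 knockout, 0.50 (95% interval -0.04 to 1.04), on low values of 94.0, 59.1, 49.1 and 71.2 normalised reads in the ANXA5 knockout libraries, against 44.0, 59.9, 50.2 and 35.8 in the wild type libraries. Ifi35, Xaf1 and the ADP-ribosyltransferase Parp14 lay between 0.05 and 0.19 in the ANXA2 knockout, and between 0.05 and 0.21 in the ANXA5 knockout.

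Among the membrane and nucleotide effectors, Bst2 was the most abundant per kilobase, with levels of 1105, 962 and 1144 normalised reads in the ANXA2 knockout libraries, against 1128, 988, 779 and 856 in the wild type libraries (log2 fold change 0.20), and at 1220.2, 1309, 1083 and 1236 normalised reads in the ANXA5 knockout libraries, against 1234, 1082, 860.4 and 938 in the wild type libraries (log2 fold change 0.25). Rsad2 (viperin) makes a nucleotide that ends viral RNA chains, and Cmpk2, a nucleotide kinase, is its neighbour on chromosome 12. Rsad2 stood at 472, 707 and 808 normalised reads in the ANXA2 knockout libraries, against 657, 1523, 1055 and 617 in the wild type libraries, a log2 fold change of -0.47 (95% interval -1.21 to 0.26), and the wild type libraries alone spanned more than the knockout did. In the ANXA5 table Rsad2 had 1269.7, 1527, 1112 and 1293 normalised reads in the ANXA5 knockout libraries, against 718, 1667, 1165 and 676 in the wild type libraries (log2 fold change 0.39). Cmpk2 had log2 fold changes of 0.04 and 0.13 in the ANXA2 and ANXA5 knockouts. Mx1 and Mx2 were at -0.32 and 0.17 in the ANXA2 knockout and at 0.13 and -0.42 in the ANXA5 knockout, and their groups overlapped in both tables.

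The knockouts were next compared directly, with all 11 libraries on 1 scale. limma called 0 of 37 members (0.298% of all genes), with 8 higher in the ANXA2 than in the ANXA5 knockout (7.39% of all genes) and 1 lower (6.16%) at an unadjusted p under 0.05. edgeR also called 0, with 9 at an unadjusted p under 0.05. DESeq2 called 3, Irgm1, Cxcl10 and Ifit1, among 397 of 16791 genes tested, with 10 members at that p. For edgeR and DESeq2 the share of all genes at that p was not computed. Without overlap, 5 members were higher in the ANXA2 knockout (Irgm1, Cxcl10, Gbp2, Mx2 and Iigp1; 6.6% of all genes) and 1 was lower (Rsad2; 5.96%). The fold change was above 0 for 18 of 37 members, against 51% of all genes, and the median was -0.01 against 0.01.

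Irgm1 stood at 2565, 1999 and 2218 normalised reads in the ANXA2 knockout libraries, against 1334, 1381, 1142 and 1286 in the ANXA5 knockout libraries. All 3 ANXA2 knockout libraries lay well above all 4 ANXA5 knockout libraries, and the log2 fold change was 0.81 (95% interval 0.44 to 1.18, limma adjusted p = 0.0936, DESeq2 adjusted p = 0.00266). The wild type spanned the gap between them, at 2276, 1581, 2012 and 1285. Cxcl10 stood at 894, 801 and 1601 normalised reads in the ANXA2 knockout libraries, against 512, 603, 418 and 349 in the ANXA5 knockout libraries, a log2 fold change of 1.18 (95% interval 0.59 to 1.77, limma adjusted p = 0.134, DESeq2 adjusted p = 0.00348). Its wild type values, 732, 629, 980.3 and 511, lay across both. Ifit1 stood at 1313, 525 and 879 normalised reads in the ANXA2 knockout libraries, against 442, 533, 307 and 396 in the ANXA5 knockout libraries, where ANXA2 knockout library 3 was just below the highest ANXA5 knockout library. Its log2 fold change was 1.04 (95% interval 0.28 to 1.80, limma adjusted p = 0.248, DESeq2 adjusted p = 0.0476), and all 4 IFIT genes were above 0, though Ifit2 was at -0.02 with the macrophage marker level as a covariate.

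Gbp2 stood at 1281, 956 and 1269 normalised reads in the ANXA2 knockout libraries, against 895, 909, 792 and 845 in the ANXA5 knockout libraries (log2 fold change 0.43, limma adjusted p = 0.244). Mx2 stood at 117, 102 and 119 normalised reads in the ANXA2 knockout libraries, against 101, 72.0, 65.4 and 64.6 in the ANXA5 knockout libraries (log2 fold change 0.59), with 1 ANXA5 knockout library almost level with the lowest of the ANXA2 knockout. Iigp1 stood at 1109, 1078 and 1358 normalised reads in the ANXA2 knockout libraries, against 713, 1054, 839 and 717 in the ANXA5 knockout libraries (log2 fold change 0.52). Rsad2 was the exception, at 506, 759 and 867 normalised reads in the ANXA2 knockout libraries, against 1239, 1492, 1086 and 1259 in the ANXA5 knockout libraries, with a log2 fold change of -0.86 (95% interval -1.48 to -0.25, limma adjusted p = 0.247). Its neighbour Cmpk2 was at -0.09. The 6 genes of the OAS group lay between -0.22 and -0.13, and for Oas3 the 95% interval ran from -0.76 to 0.32, so a difference between the knockouts was not detectable. With the macrophage marker level as a covariate Oas3 was at 0.05.

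**Figure D5:**
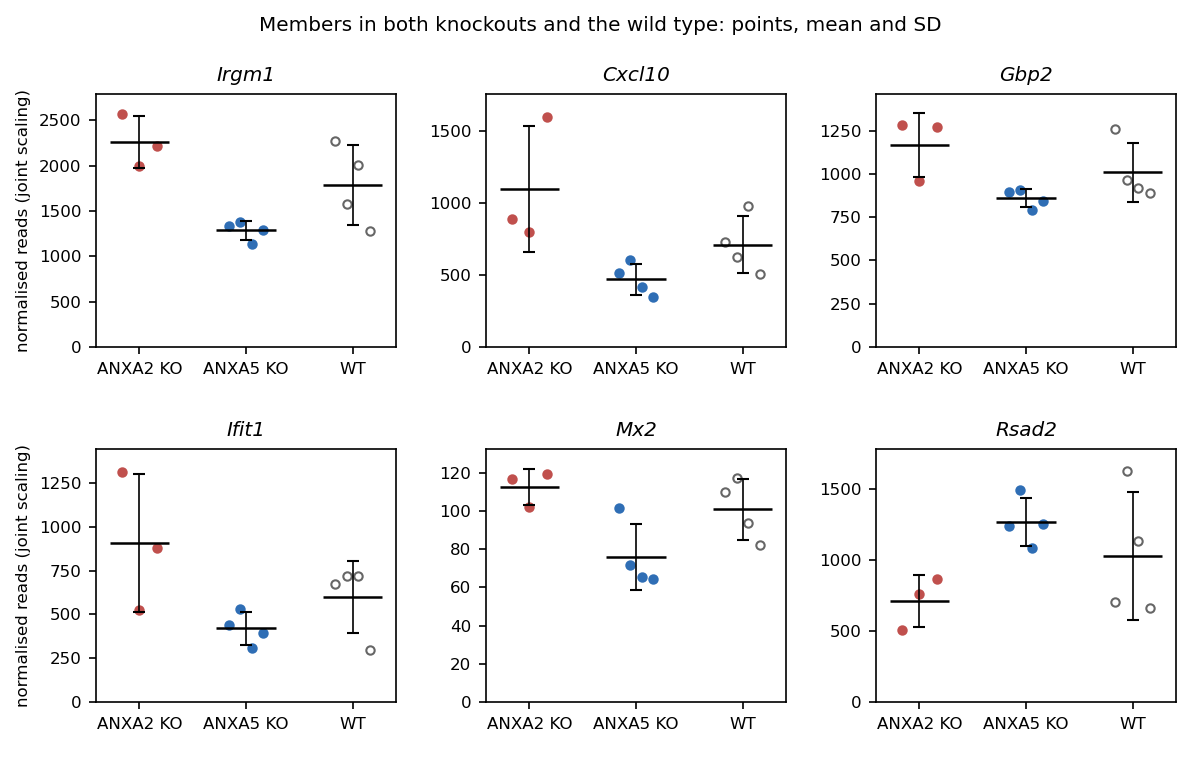
Normalised reads on the joint scale for 6 members in the ANXA2 knockout, the ANXA5 knockout and the wild type. Points are libraries and bars with whiskers are means and SD; for Irgm1, Cxcl10 and Gbp2 the ANXA2 knockout points lie above the ANXA5 knockout points, for Rsad2 below them, and the wild type overlaps at least 1 of the knockouts in each panel.

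The rest of the interferon pathway gave 0 calls by limma in any of the 3 comparisons. Of the ligands only Ifng was analysed here, with 1 to 14 reads per library, under the filter. The 6 receptors had no member at an unadjusted p under 0.05 in any comparison, and the largest fold change was 0.44 for Ifnlr1 in the ANXA5 knockout (95% interval -0.22 to 1.09). Irf1, a factor driven by interferon gamma and by NF-kB, stood at 10594 ± 964 normalised reads in the ANXA2 knockout libraries, against 7838 ± 2766 in the wild type libraries (log2 fold change 0.49), and at 5391 ± 817 normalised reads in the ANXA5 knockout libraries, against 8609 ± 3081 in the wild type libraries (log2 fold change -0.63). Between the knockouts its log2 fold change was 1.12 (95% interval 0.65 to 1.59, limma adjusted p = 0.0659), with no overlap. Irf8, a factor of myeloid cells, was at 0.33 in the ANXA5 knockout.

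Of the 12 negative regulators tested, 6 were higher at an unadjusted p under 0.05 in the ANXA2 knockout, among them the phosphatase Ptpn1 (log2 fold change 0.33, limma adjusted p = 0.518). All genes gave 4.65% there. Of the same 12, 4 were higher and 1 was lower at that p in the ANXA5 knockout (6.48% and 5.45% of all genes), with Nlrc5 at 0.61 and Ptpn6 at 0.38. Socs1, which inhibits the receptor kinases, stood at 5134 ± 1613 normalised reads in the ANXA2 knockout libraries, against 2498 ± 266 in the ANXA5 knockout libraries, with a 95% interval of the log2 fold change of 0.56 to 1.44 (limma adjusted p = 0.079). Its relative Socs3 was at 1.30 (limma adjusted p = 0.148). Of the nucleic acid sensors and adaptors outside the members, 1 of 15 was higher at an unadjusted p under 0.05 in the ANXA2 knockout (4.65% of all genes; Myd88, log2 fold change 0.36) and 3 of 14 in the ANXA5 knockout (6.48%), with Tlr7 at 0.85 and Cgas at 0.34. Among other interferon-stimulated genes outside the 37, 3 of 76 were higher and 3 lower at that p in the ANXA2 knockout (4.65% and 4.04% of all genes), and 37 were above 0 (log2 fold changes: Ifi207 0.62, Slfn2 0.46). For the ANXA5 knockout 11 of 77 were higher and 2 lower at that p (6.48% and 5.45% of all genes), and 45 were above 0 (log2 fold changes: Ifitm1 0.65, Slfn2 0.50). Between the knockouts 6 of 78 were higher and 10 lower at that p (7.39% and 6.16% of all genes), and 33 were above 0 (log2 fold changes: Ifi209 -0.60, Plscr2 -0.74).

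Some libraries were low for most members. Wild type library 4 was the lowest of the 4 wild type libraries for 24 of 37 members in the ANXA2 table (64.9%, against 27.5% of all genes) and for 25 in the ANXA5 table (67.6%, against 27.8%). The mean log2 deviation of the members from the wild type mean was -0.23 in that library, and 0.10, 0.13 and -0.01 in the other wild type ones. Of the ANXA2 knockout libraries, number 3 was the lowest for 25 of 37 members (67.6%, against 23.4% of all genes), and the mean deviations were 0.17, 0.00 and 0.29. In the ANXA5 knockout, library 3 was the lowest for 20 of 37 (54.1%, against 29.7%), and the deviations were 0.14, 0.13, -0.08 and 0.04. For the 4 IFIT genes the mean deviations were 0.65, -0.05 and 0.45 in the ANXA2 knockout, -0.10, -0.12, -0.55 and -0.25 in the ANXA5 knockout, and 0.15, 0.25, 0.10 and -0.49 in the wild type. Without wild type library 4, the members at an unadjusted limma p under 0.05 numbered 12 in the ANXA5 knockout, against 6 with it, and 2 in the ANXA2 knockout, against 4. Without ANXA5 knockout library 3 they numbered 10 in the ANXA5 knockout. Without library 1 of the ANXA2 knockout, or without its library 4, 1 member of the ANXA2 knockout was under that p. The share of all genes under that p was not computed for these fits. Calls over all genes by limma moved too, to 32 in the ANXA5 knockout without wild type library 4, against 5 with it.

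Markers of other cell types were also compared between the groups, and limma called 0 of them in each of the 3 comparisons. All 16 macrophage and monocyte markers were above 0 in the ANXA5 knockout, 11 of them at an unadjusted limma p under 0.05 (52% and 6.48% of all genes). Their summed level was 134071 to 167748 normalised reads, against 95879 to 146520 in the wild type. Of these sums, Lyz2 alone made up 98099 to 120130 in the ANXA5 knockout, against 65738 to 105626 in the wild type. All 8 neutrophil markers were above 0, with sums of 432103 to 598784 in the ANXA5 knockout, against 307848 to 550058 in the wild type. So were 5 of 6 endothelial markers, all 5 at an unadjusted limma p under 0.05 (6.48% of all genes), and the list median was 1.15. Tek was the exception and was lower at that p (5.45% of all genes). It stood at 1585 to 1927 normalised reads in the ANXA5 knockout, against 1888 to 3159 in the wild type. The endothelial sums, which include Tek, were 4203 to 6061 in the ANXA5 knockout, against 3533 to 4745 in the wild type. The ANXA2 knockout had 10 of 16 macrophage markers above 0, with sums of 88776 to 176425 in the ANXA2 knockout, against 87668 to 133619 in the wild type. All 8 neutrophil markers were above 0 there too, with sums of 260303 to 632479 in the ANXA2 knockout, against 281484 to 501627 in the wild type. Between the knockouts, 15 of 16 macrophage markers were below 0, with sums of 95229 to 189255 in the ANXA2 knockout, against 130926 to 163964 in the ANXA5 knockout. Erythroid and megakaryocyte markers had a median log2 fold change of -0.72 there, with 4 of 6 lower at an unadjusted limma p under 0.05 (6.16% of all genes). Endothelial markers had a median of -0.75, with 2 of 6 lower at that p (6.16% of all genes). All 7 T and NK cell markers and all 8 neutrophil markers were below 0. No marker of these lists was at 0 in any library. In such mixed samples fewer cells of a type and less RNA per cell cannot be told apart. With the mean level of the macrophage markers as a covariate, 33 of 37 members were above 0 in the ANXA5 knockout, and the lowest limma adjusted p of a member was 0.999. Since these markers were all above 0 in that knockout, this fit cannot well separate the covariate from the knockout. The part of the other markers in the results was not tested.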

How the data were processed

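RNA of 11 libraries was sequenced. Per the submitters' processing notes, Trim Galore, STAR, HTSeq and DESeq2 were used with build GRCm39; versions, annotation, strand setting and the counting of shared reads are not named there. The deposited signal values are read counts that the authors divided by a size factor per library, and whole reads were recovered from 100% of the values (tolerance 0.001). The wild type reads were equal in both deposited tables for 100% of shared genes. The deposited log2 fold changes and p-values are the authors' own, per the file headers. The deposited score, a test statistic per the file headers, was not used. No sample column was left out (0).

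A gene was tested if its value reached 10 in a number of libraries equal to the size of the smaller group (16123, 16224 and 16791 genes, and all 37 members in each) with limma 3.58.1 in R 4.3.3 on log2 (value + 1), two-sided, with Benjamini-Hochberg adjustment over all genes and a threshold of 0.05. The knockouts were compared in a fit of all 11 libraries on the recovered reads with joint size factors. Alternatives were edgeR 4.0.16 (quasi-likelihood), DESeq2 1.42.0, limma-voom, TMM scaling, other pseudocounts and filters, covariates, a replicate block and leaving out each library; the limma code was tested on simulated data. Values in every library were given for the 6 members with the smallest p in each comparison with the wild type and for the most abundant member of each role. From each pathway list the 2 genes with the smallest p could be named. Further members were chosen after their values were seen. The members and lists were chosen with earlier results of these data known.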

Additional observations from a re-analysis of the deposited data

Results flagged for a closer look

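In 4 of 74 groups of 4 libraries, 1 library stood apart from the other 3 by Dixon's test; chance alone flags about 1 group in 20. Ifit1 was lowest in wild type library 4, at 275.348 normalised reads, with 631 to 670 in the other wild type libraries. Cmpk2 was highest in wild type library 1, at 1126.23 normalised reads, with 1013 to 1021 in the others. Irf7 was lowest in ANXA5 knockout library 3, at 1224.6 normalised reads, with 1939 to 1989 in the others. Ifi27 was lowest in ANXA5 knockout library 4, at 2880.77 normalised reads, with 3612 to 3748 in the others.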

How the results depend on the processing

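With Xist as a covariate, 1 member was called in the ANXA2 knockout (Oas3), against 0 without it. DESeq2 called 2 members in the ANXA5 knockout, as did the authors' deposited adjusted p, and 3 between the knockouts, against 0 by limma; the cause was not tested. With the macrophage marker level as a covariate the median log2 fold change of the members in the ANXA5 knockout was 0.32, against 0.06, and 15 of 37 signs turned. That covariate and the ANXA5 knockout cannot be well told apart. Leaving out each library in turn called 0 members in every comparison, and the median ranged from 0.08 to 0.24 in the ANXA2 knockout, from 0.05 to 0.14 in the ANXA5 knockout and from -0.03 to 0.03 between the knockouts. Over all genes, limma called 18, 5 and 50 in the 3 comparisons and DESeq2 107, 278 and 397. The Xist covariate gave 284 in the ANXA2 knockout. The macrophage covariate gave 36, 1 and 28. Leaving out a library gave 8 to 16, 4 to 32 (32 without wild type library 4) and 19 to 50. ANXA5 knockout and wild type libraries of the same number had correlations of 0.0494, -0.0745, -0.252 and 0.067 between their deviations from the group mean. Those of different numbers ran from -0.145 to 0.247. With so few libraries this cannot settle whether the numbers mark pairs. A replicate block on these numbers called 0 members and 8 genes, with Oas3 at 0.95 (limma adjusted p = 0.228), and with Xist added it called 22 genes. The ANXA2 knockout columns could not be matched to replicate numbers, so no block was fitted there. With 3 or 4 libraries a group, intervals of single members were wide.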
